A study of Homo sapiens with 4 samples.

Results

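The regulator of G protein signalling (RGS) genes described here are RGS1, RGS2, RGS3, RGS10, RGS12, RGS13, RGS14, RGS16, RGS18 and RGS19. They were chosen by gene symbol in the array's probe annotation, because RGS1 had stood out in the response of one cell line and the question was whether that response was particular to RGS1. They are 10 of 18417 genes that had a probe set of their own, and each of the 10 was read by 1 probe set that names no other gene. Since the set was chosen with the atovaquone ratio of RGS1 in view, that ratio is given as a description.

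Gene expression was measured on 4 arrays with 1 array in each group and no replicate. U266 cells, a human multiple myeloma line, received 15 µM atovaquone for 2 h or DMSO vehicle for 2 h. K562 cells, a human chronic myeloid leukaemia line, received 20 µM atovaquone for 5 h or vehicle for 5 h. Atovaquone is an antimalarial naphthoquinone that blocks complex III of the mitochondrial respiratory chain. Dose and time differ between the lines, so their responses are set side by side and a difference between them cannot be told apart from a difference in exposure. Both lines are established cultures and no animal or donor material was used. The lines carried the markers of their labelled cell types on the vehicle arrays, with 8 of 8 plasma cell markers at least 2-fold higher in U266 and 6 of 6 erythroid and megakaryocytic markers at least 2-fold higher in K562. Of 9 markers of other cells, PECAM1 was at least 2-fold higher in U266, LYZ was at least 2-fold higher in K562, and MS4A1, CSF1R and NCAM1 were below the detection floor in both.

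RGS proteins bind the active, GTP-loaded alpha subunit of a heterotrimeric G protein and speed its hydrolysis of GTP, which ends the signal of the receptor upstream. In blood cells they set how long chemokine and lipid mediator receptors signal, and several of their genes are known to be switched on quickly by cell activation. The R4 subfamily, whose proteins are small, includes RGS1, RGS2, RGS3, RGS13, RGS16 and RGS18, the R12 subfamily includes RGS10, RGS12 and RGS14, and RGS19 belongs to the RZ subfamily.

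Values are the authors' deposited probe set intensities on a linear scale. A detection floor was set on each array at the 40th percentile of its annotated probe sets, an intensity between 305 and 331, and a gene at or above it counted as measured. Where a gene was measured on 1 array of a pair its fold is a bound, and where it was below the floor on both no fold is given. The median log2 ratio of measured probe sets was subtracted from each log2 ratio. No test or p-value was possible. As a yardstick, a member's log2 ratio is set beside the SD of the log2 ratios of the 200 measured genes nearest to it in intensity, which holds both technical error and real differences between genes. On these bulk arrays a smaller share of cells with a transcript and less of it per cell cannot be told apart.

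**Figure D1:**
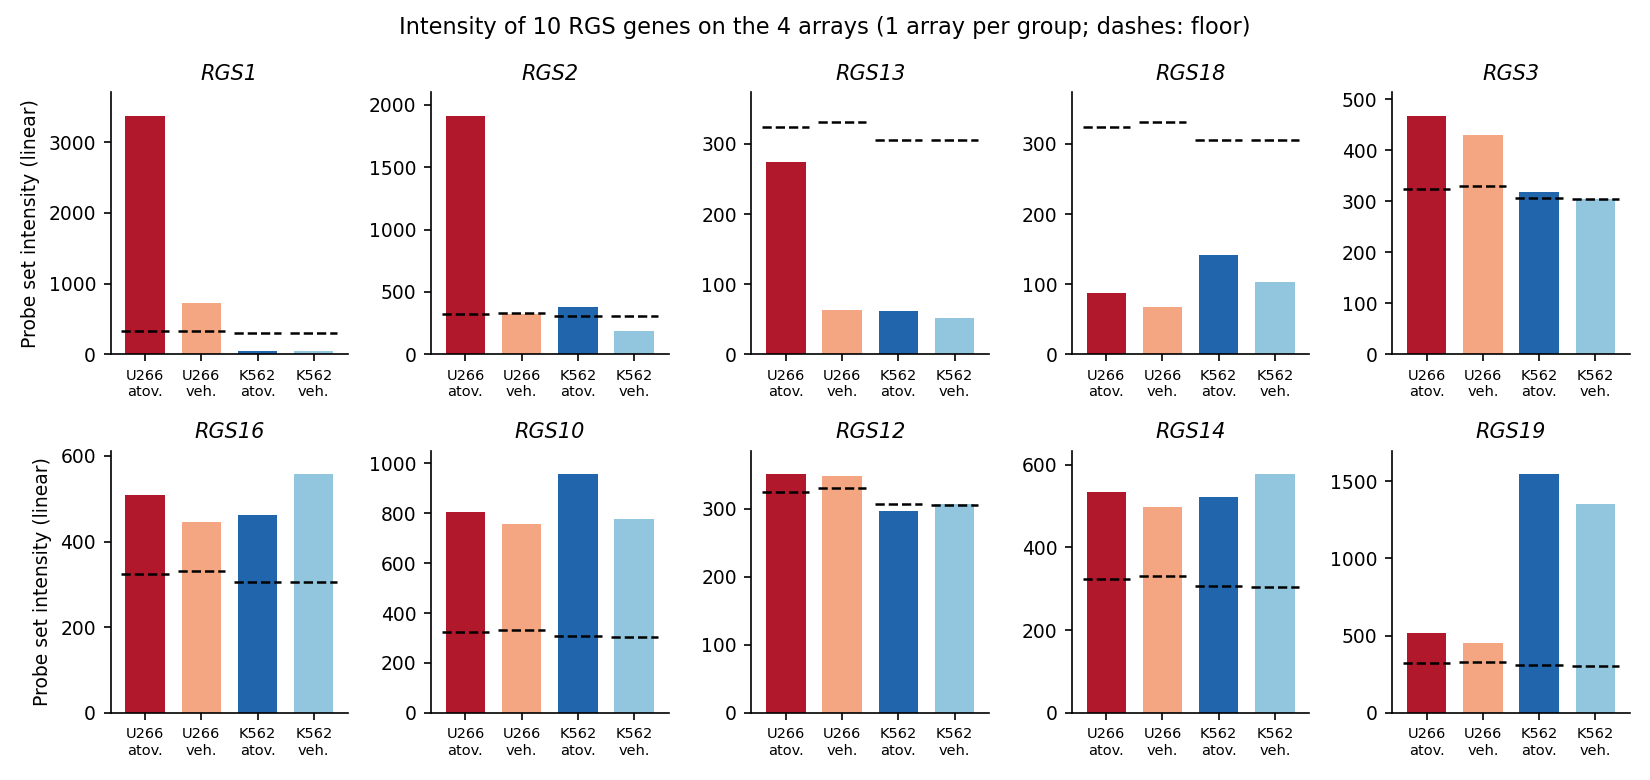
Deposited intensity (linear scale, from 0, each panel with its own range) of the 10 RGS genes on the U266 atovaquone, U266 vehicle, K562 atovaquone and K562 vehicle arrays, 1 array per bar, with each array's floor as a dashed line. RGS1 and RGS2 are several times higher on the U266 atovaquone array than on the U266 vehicle array, RGS13 is below the floor on both, and the other genes lie close together within each line.

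In U266 the atovaquone array carried more signal for RGS1 and for RGS2, so RGS1 did not stand alone. RGS1, an R4 member that restrains chemokine receptor signalling in activated B cells, had an intensity of 3373 on the atovaquone array and 719 on the vehicle array. Both values were above the floor. Its log2 ratio was 2.24, or 4.72-fold higher with atovaquone, against an SD of 0.16 among the 200 genes nearest in intensity. It ranked 6 among 10731 measured genes. RGS2, which is best known for acting on the Gq class of alpha subunits, had an intensity of 1911 with atovaquone and 321 with vehicle. The vehicle value fell just under that array's floor of 331, so RGS2 has a lower bound of 5.82-fold, which is larger than the ratio of RGS1. A floor at the 60th percentile lowered the bound on its log2 ratio to 1.51.

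RGS13, an R4 member of germinal centre B cells and mast cells, had an intensity of 274 with atovaquone and 63.3 with vehicle. Both lay below the floor, so no fold is given. A 20th percentile floor, which the atovaquone value passed, gave a lower bound of 0.75 on the log2 ratio. With no floor its log2 ratio was 2.13, beside 2.25 for RGS1. By deposited ratio it ranked 2 of 7153 genes below the floor on both U266 arrays.

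Counted at a fixed size of 1.5-fold, the atovaquone array was higher for 1 of the 7 RGS genes measured on both U266 arrays and lower for 0. Over all genes measured on both arrays the shares past this size were 0.857% higher and 0.0932% lower. With bounds included, 2 of 8 RGS genes were higher and 0 lower, where 1.00% of all genes were higher and 0.142% lower. The rule drew on the RGS1 value, so these counts are given with nothing read from them.

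The remaining R4 genes did not share the size of these differences. RGS3, which is made in several forms and acts on Gi and Gq subunits, had an intensity of 468 with atovaquone and 431 with vehicle, a log2 ratio of 0.13. RGS16, which is known to be inducible in lymphocytes, had an intensity of 509 with atovaquone and 446 with vehicle, a log2 ratio of 0.20. RGS18, known from platelets and megakaryocytes, was below the floor in U266 with intensities of 86.9 with atovaquone and 67.9 with vehicle.

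The R12 and RZ genes were also close to their vehicle values. RGS10, a small R12 protein of immune cells and microglia, had an intensity of 803 with atovaquone and 759 with vehicle, a log2 ratio of 0.09. RGS12, a scaffold that also binds Ras proteins, stood at 350 with atovaquone and 347 with vehicle, a log2 ratio of 0.02. RGS14, another Ras-binding scaffold, stood at 535 with atovaquone and 497 with vehicle, a log2 ratio of 0.12. RGS19, which is also called GAIP and acts on Gi subunits, stood at 518 with atovaquone and 450 with vehicle, a log2 ratio of 0.21. Of these 6 genes measured on both arrays other than RGS1, all 6 lay above 0, 2 lay beyond 1 SD of their nearest genes, and 0 lay beyond 2 SD. The shares of all measured genes above 0 or beyond these SDs were not computed, so nothing is read from these counts. The median log2 ratio of the 7 genes measured on both arrays was 0.13, against −0.00 over all measured genes.

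**Figure D2:**
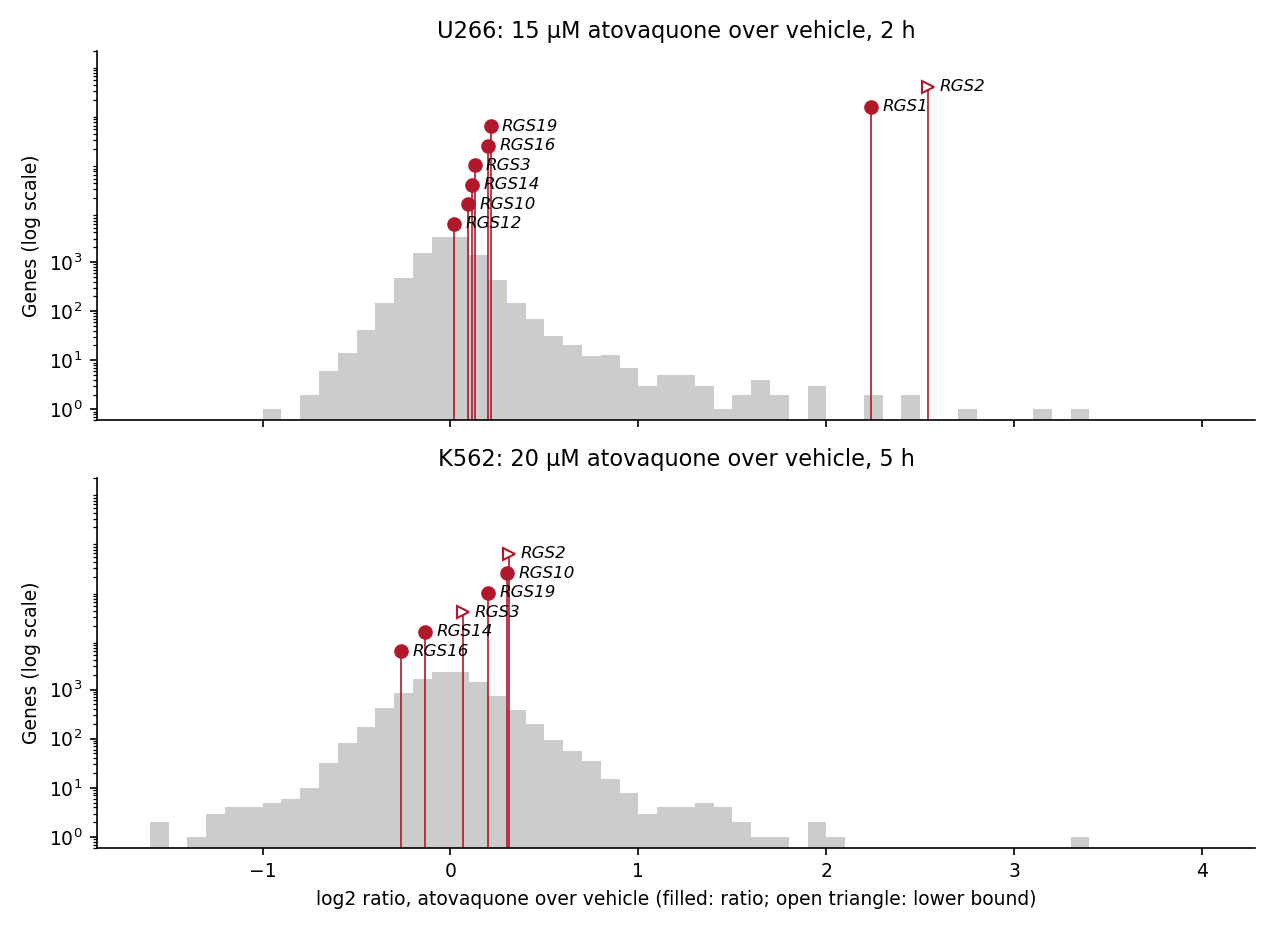
Histograms of the log2 ratio of atovaquone over vehicle for all genes measured on both arrays of a line (x axis, log2; y axis, number of genes on a log scale), with RGS genes as red lines at their own ratio. Marker height only separates the names, filled circles are ratios and open triangles are lower bounds. In U266 RGS1 at 2.24 and RGS2 at a bound of 2.54 lie in the sparse right tail. Every other ratio or bound drawn in either line lies between −0.26 and 0.31. RGS2 and RGS3 in K562 are lower bounds, so their ratios may be larger.

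RGS1, RGS13 and RGS2 are direct neighbours. In the RefSeq annotation (GRCh38.p14) 5 RGS genes follow each other on chromosome 1 in the order RGS18, RGS21, RGS1, RGS13, RGS2, with 0 other protein-coding genes between them. The start site of RGS13 lies 60.4 kb beyond that of RGS1, and the start site of RGS2 lies 233 kb beyond that of RGS1, while RGS18 starts 417 kb before RGS1. RGS16 lies on the same chromosome, 9.55 Mb before RGS18. Of these 5 genes RGS1 and RGS2 were measured in U266 and were several times higher on the atovaquone array. RGS13, which lies between them, was below the floor on both arrays, with a log2 ratio of 2.13 when no floor was applied. RGS21, the neighbour of RGS1 on the other side, had intensities of 38.9 with atovaquone and 46.1 with vehicle, below the floor on both. The 4 protein-coding genes beyond RGS2 (UCHL5, RO60, GLRX2 and CDC73) were measured on both U266 arrays and had log2 ratios between −0.09 and 0.12. UCHL5, a deubiquitinase of the proteasome and the first gene beyond RGS2, had intensities of 1767 with atovaquone and 1806 with vehicle. The 4 genes before RGS18 (PDC, PTGS2, PLA2G4A and BRINP3) were below the floor on both U266 arrays. PTGS2, an inducible cyclooxygenase gene, had intensities of 114 with atovaquone and 92.1 with vehicle.

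**Figure D3:**
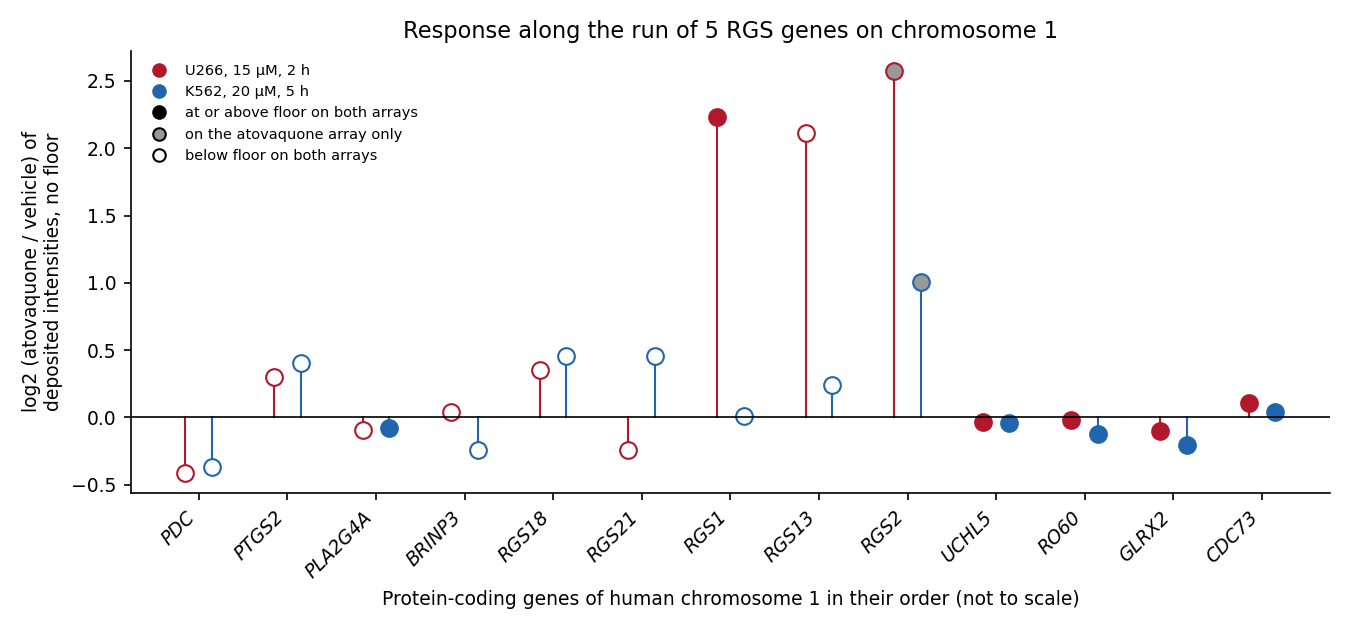
Log2 ratio of deposited intensities, atovaquone over vehicle with no floor applied (y axis), for the run of RGS genes on chromosome 1 and the 4 protein-coding genes on each side, in their order along the chromosome (x axis, not to scale), in U266 (red) and K562 (blue). Filled circles were measured on both arrays, grey ones on the atovaquone array only, and open ones were below the floor on both. RGS1 and RGS2 stand high in U266, RGS13 stands high too but as an open circle, RGS2 stands highest in K562, and the genes from UCHL5 onward stay near 0.

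The promoter windows of these neighbours are shown because RGS1 and RGS2 were higher together in U266 and RGS13 and RGS18 belong to the same run. Each runs from 250 bases before to 50 bases after the RefSeq start site (GRCh38.p14, plus strand), at chr1:192575523-192575822 for RGS1, chr1:192635897-192636196 for RGS13, chr1:192808789-192809088 for RGS2 and chr1:192158212-192158511 for RGS18. Capitals mark matches, on either strand, to GGG followed by 5 bases of any kind and CC, the letters shared by many NF-kB sites.
RGS1: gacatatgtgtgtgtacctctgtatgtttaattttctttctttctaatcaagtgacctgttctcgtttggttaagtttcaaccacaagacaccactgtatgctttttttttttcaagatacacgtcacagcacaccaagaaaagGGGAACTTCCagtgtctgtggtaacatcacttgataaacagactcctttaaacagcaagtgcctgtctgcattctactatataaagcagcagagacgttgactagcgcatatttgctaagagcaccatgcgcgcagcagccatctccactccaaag
RGS13: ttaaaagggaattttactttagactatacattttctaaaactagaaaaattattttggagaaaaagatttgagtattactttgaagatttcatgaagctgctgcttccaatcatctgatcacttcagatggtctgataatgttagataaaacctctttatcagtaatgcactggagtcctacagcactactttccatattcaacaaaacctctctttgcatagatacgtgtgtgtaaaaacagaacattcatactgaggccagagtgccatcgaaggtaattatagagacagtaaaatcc
RGS2: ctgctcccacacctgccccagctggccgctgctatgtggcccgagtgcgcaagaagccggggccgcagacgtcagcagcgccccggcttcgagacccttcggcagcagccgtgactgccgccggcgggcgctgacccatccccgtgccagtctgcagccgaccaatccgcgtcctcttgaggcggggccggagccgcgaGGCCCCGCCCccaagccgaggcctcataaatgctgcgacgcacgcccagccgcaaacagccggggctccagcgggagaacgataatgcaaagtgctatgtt
RGS18: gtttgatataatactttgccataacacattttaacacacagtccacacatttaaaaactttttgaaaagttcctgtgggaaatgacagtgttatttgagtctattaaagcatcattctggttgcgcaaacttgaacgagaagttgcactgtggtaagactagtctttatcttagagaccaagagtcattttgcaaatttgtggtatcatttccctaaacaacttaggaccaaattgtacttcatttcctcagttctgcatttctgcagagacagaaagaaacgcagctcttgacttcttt
The windows differ in composition, with a G and C content of 41.7% for RGS1, 33.7% for RGS13, 69.7% for RGS2 and 36.0% for RGS18.

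Letter patterns were searched on both strands in the RefSeq windows of all 10 genes, several of which have more than 1 start site. The window of RGS1 held GGGAACTTCC, starting 106 bases before the start site, and that of RGS2 held GGCCCCGCCC, the same pattern on the other strand, starting 51 bases before it. The 10 genes have 20 windows, of which 14 (70.0%) held that pattern, and it is found in 58.7% of all 35116 windows of this length. Windows of 1 gene can overlap. The AP-1 pattern TGANTCA was found in 0 of these 20 windows and in 7.71% of all windows. The CRE pattern TGACGTCA was found in 0 of these 20 windows and in 1.85% of all windows. The heat shock element pattern was 3 alternating GAA and TTC blocks with 2 bases of any kind between blocks. It was found in 0 of these 20 windows and in 0.49% of all windows. The STAT pattern TTCNNNGAA was found in 0 of these 20 windows and in 7.66% of all windows. A match is a match of letters and no match says only that these letters are not in the window.

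In K562 no RGS gene had a ratio or bound of the size seen for RGS1 and RGS2 in U266. RGS1 had intensities of 43.4 with atovaquone and 43.0 with vehicle, below the floor on both arrays. RGS2 had an intensity of 378 with atovaquone and 188 with vehicle, which crossed the floor and gives a lower bound of 1.24-fold. That bound depends on the floor, since the log2 ratio of RGS2 was 1.02 without a floor, and the same under a 20th percentile floor. RGS13 had intensities of 61.0 with atovaquone and 51.6 with vehicle, and RGS18 had 141 with atovaquone and 103 with vehicle, all below the floor.

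Of the genes measured on both K562 arrays, RGS10 had an intensity of 956 with atovaquone and 778 with vehicle, a log2 ratio of 0.30. RGS19 had an intensity of 1544 with atovaquone and 1349 with vehicle, a log2 ratio of 0.20. RGS14 had an intensity of 523 with atovaquone and 577 with vehicle, a log2 ratio of −0.14. RGS16 had an intensity of 462 with atovaquone and 557 with vehicle, a log2 ratio of −0.26. Each of these 4 ratios lay within 2 SD of the genes nearest in intensity, whose SDs were between 0.23 and 0.29. RGS3, at 319 with atovaquone and 304 with vehicle, has a lower bound of 1.05-fold. RGS12, at 296 with atovaquone and 307 with vehicle, crossed the floor by so little that no bound could be set.

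At a size of 1.5-fold, 0 of the 4 RGS genes measured in K562 were higher with atovaquone and 0 were lower, where 1.42% of all measured genes were higher and 0.697% lower. Counting bounds too, 0 of 6 were higher and 0 lower, where 1.55% of all genes were higher and 0.687% lower. RGS12, for which no bound could be set, is not among the 6, whereas the shares over all genes include such genes. The median log2 ratio of the 4 genes measured on both arrays was 0.03, against −0.01 over all measured genes. The same 4 genes were measured on all 4 arrays, and 0 of them had responses at least 1.5-fold apart between U266 and K562. RGS1 and RGS2 are not among these 4 genes, and with no floor the count over the RGS genes was 3. The share over all genes was not computed, so nothing is read from this count. For the 4 genes the differences in log2 ratio, U266 minus K562, were between −0.21 for RGS10 and 0.47 for RGS16.

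On the vehicle arrays the intensity of RGS1 was higher in U266 and that of RGS19 was higher in K562. RGS1 had an intensity of 719 in U266 and 43.0 in K562, and was at least 2.40-fold higher in U266 as a bound set by the K562 floor. That bound moves with the floor, to a log2 value of at least 0.20 under a 60th percentile floor and at least 2.30 under a 20th percentile floor, and the log2 difference was 4.03 without a floor. RGS19 had an intensity of 450 in U266 and 1349 in K562, a log2 difference of −1.56, or 2.95-fold higher in K562. That is within 2 SD of its nearest genes, whose log2 differences had an SD of 0.90, and under a 60th percentile floor it was a bound of −0.97. Counting bounds, 1 of 7 RGS genes was 1.5-fold or more higher in U266 and 1 was lower, where 21.0% of all genes were higher and 17.7% lower, so neither share exceeded that of all genes. RGS3 had intensities of 431 in U266 and 304 in K562, and its bound was 1.44-fold after centring and 1.41-fold without it.

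The other genes had similar baselines or stayed below the floor. RGS10 had intensities of 759 in U266 and 778 in K562, a log2 difference of −0.01. RGS12, RGS14 and RGS16 had log2 differences of 0.20, −0.19 and −0.30, U266 minus K562. RGS2, RGS13 and RGS18 were below the floor on both vehicle arrays, with intensities for RGS2 of 321 in U266 and 188 in K562. RGS18 was higher in K562, at 103, than in U266, at 67.9, but at an intensity where no fold is given.

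Among 11 further RGS genes with a probe set, 9 were below the floor on all 4 arrays, with intensities between 31.8 and 203. RGS7, a member of the R7 subfamily known from neurons, had intensities of 428 and 418 on the U266 atovaquone and vehicle arrays and 84.9 and 83.6 on the K562 atovaquone and vehicle arrays. Its log2 ratio in U266 was 0.05, and it was at least 1.39-fold higher in U266 than in K562 on the vehicle arrays. RGS6, of the same subfamily, had intensities of 317 and 344 on the U266 atovaquone and vehicle arrays and was below the floor in K562.

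**Figure D4:**
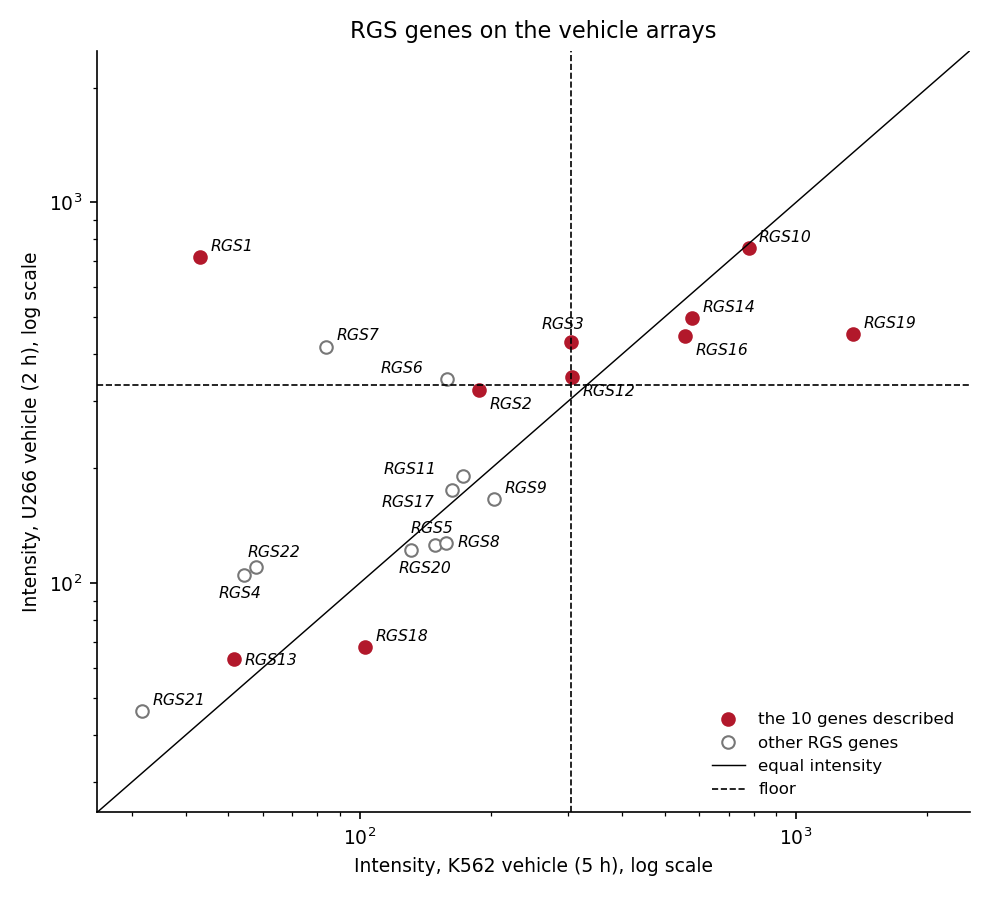
Intensity on the U266 vehicle array (y axis, log scale) against the K562 vehicle array (x axis, log scale) for the 10 RGS genes described (red) and 11 other RGS genes (open), with each array's floor dashed and equal intensity as a line. RGS1 and RGS7 lie far above the line, RGS19 lies below it, and RGS10, RGS14 and RGS16 lie near it. Distances between genes are not comparable, since each is read by its own probes.

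Genes that encode the partners of RGS proteins mostly stayed within 1.5-fold of their vehicle intensity in both lines, as did nearly all measured genes. In U266 only 0.857% of measured genes went up past that size with atovaquone and 0.0932% went down. In K562 the shares were 1.42% up and 0.697% down. Low counts in lists this short therefore do not set the listed genes apart from others. These lists, like the RGS genes, were chosen with earlier results of these data known. G alpha subunit genes gave 0 of 8 measured in U266 past 1.5-fold in either direction, with a median log2 ratio of 0.04. GNA13 had intensities of 3302 with atovaquone and 2782 with vehicle and the largest ratio of that list, at 0.26. In K562 0 of 9 were past 1.5-fold, with a median of −0.02. GNAQ, a Gq subunit that RGS2 acts on, stood at −0.32 in K562 and was below the floor in U266, with intensities of 169 with atovaquone and 174 with vehicle.

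G beta and gamma genes had medians of −0.01 over 7 genes in U266 and −0.02 over 6 genes in K562, with 0 at least 1.5-fold different in either line. GNG3, a gamma subunit gene, had the largest ratio in U266, at −0.42, with intensities of 371 with atovaquone and 499 with vehicle. G protein modulators had medians of −0.03 over 9 genes in U266 and −0.06 over 9 genes in K562, with 0 at least 1.5-fold different. RIC8A, a chaperone and exchange factor of alpha subunits, stood at −0.36 in K562. Genes of other proteins with an RGS-like domain had medians of 0.01 over 11 genes in U266 and −0.02 over 11 genes in K562, with 0 at least 1.5-fold different. GRK5, a receptor kinase, had the largest ratio of that list in U266, at 0.28.

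Receptor genes of blood cells had a median of −0.06 over 16 genes measured in U266, with 5 of them above 0, and of −0.14 over 11 genes measured in K562, with 1 above 0. The median over all measured genes was −0.00 in U266 and −0.01 in K562. Shares of all measured genes above 0 were not computed, so nothing is read from these receptor counts. In both lines 0 of these receptor genes were at least 1.5-fold different. F2R, the thrombin receptor gene, was the largest in K562, at −0.43, with intensities of 604 with atovaquone and 817 with vehicle. ADGRE5, which encodes the adhesion receptor CD97, stood at 0.27 in U266 and −0.39 in K562.

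Among effectors, 1 of 20 genes measured in U266 was at least 1.5-fold higher and 0 were lower, and in K562 0 of 23 were at least 1.5-fold different. That gene was ADCY4, an adenylyl cyclase, with an intensity of 641 with atovaquone and 331 with vehicle, a log2 ratio of 0.96. Its vehicle value lay at the floor. PDE4B, which degrades cAMP, had intensities of 439 with atovaquone and 217 with vehicle in U266, a lower bound of 1.34-fold.

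Genes commonly listed as CREB targets, which cAMP and calcium signals can induce, included several that were higher in U266. Of 4 measured on both arrays 1 was at least 1.5-fold higher, where 0.857% of all genes were. Of 7 with only a bound, 5 were at least 1.5-fold higher. The share of 1.00% over all genes pools ratios and bounds, so it is not a like share for those 7. A share over bounds alone was not computed. The list was chosen with these values known, so nothing is read from its counts. DUSP1, a phosphatase of MAP kinases, was 9.04-fold higher, and the orphan nuclear receptor gene NR4A1 was at least 7.28-fold higher, with intensities of 2392 with atovaquone and 206 with vehicle. FOS, an AP-1 subunit, was at least 4.30-fold higher, and PPARGC1A, a coactivator of mitochondrial genes, at least 1.60-fold. The related NR4A2 and NR4A3 were the other members with a bound past this size. In K562 0 of 8 measured members were past 1.5-fold, and neither of 2 bounds, for CREM and FOSB, reached that size. Over all lists, 76 genes were measured on both U266 arrays and 77 on both K562 arrays.

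**Figure D5:**
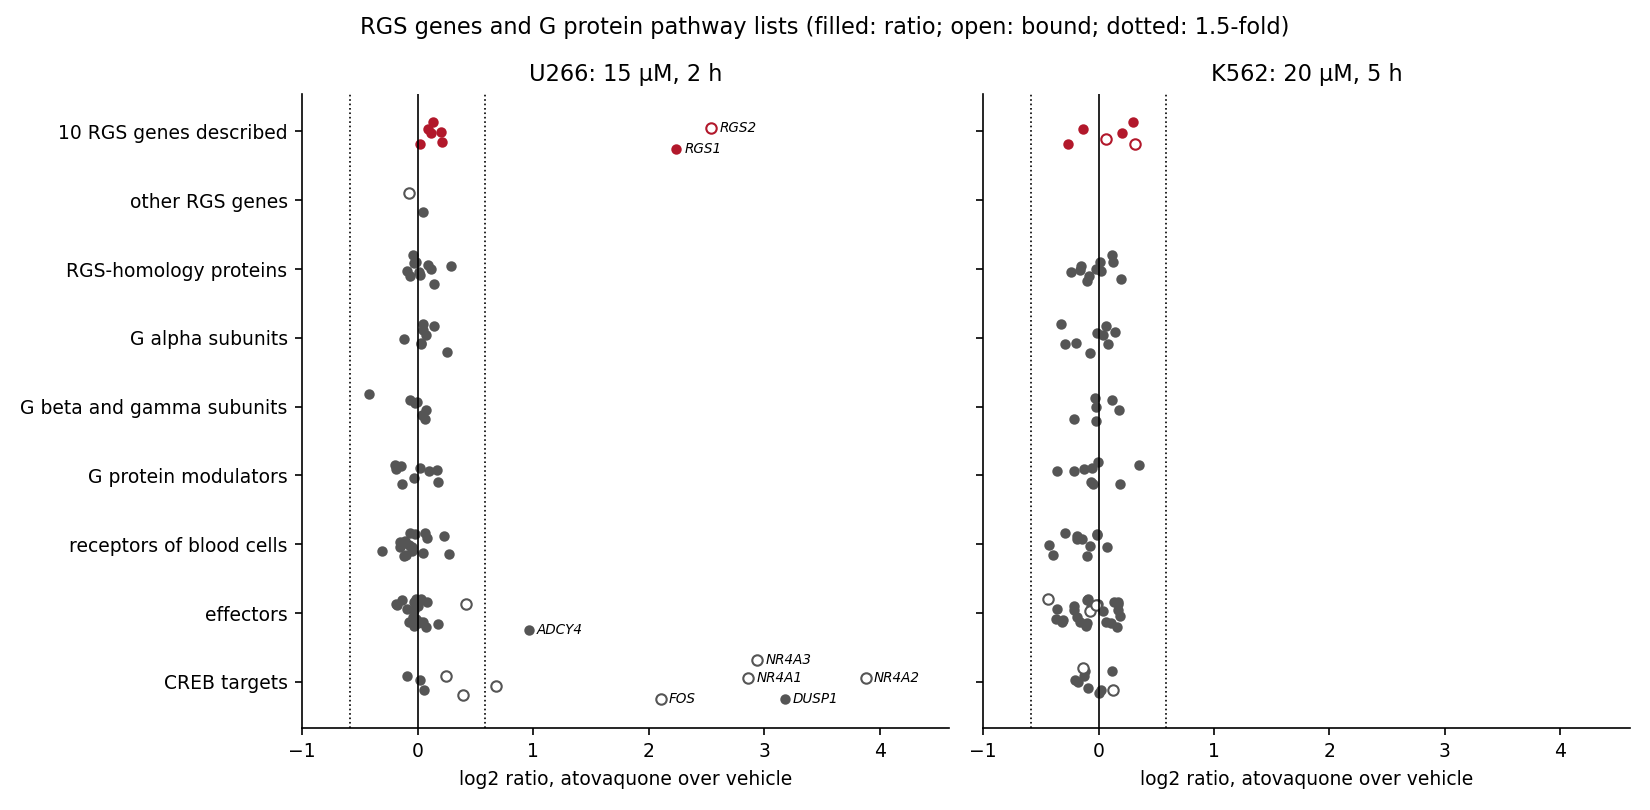
Log2 ratio of atovaquone over vehicle (x axis) for the 10 RGS genes described (red) and for genes of each G protein pathway list (grey), in U266 (left) and K562 (right), with filled circles for ratios, open circles for bounds and dotted lines at 1.5-fold. Points are spread up and down within a row for visibility. In U266 RGS1, RGS2, ADCY4 and several CREB targets lie right of the dotted line, and in K562 every ratio or bound lies between the dotted lines.

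The genes whose pattern was most like that of RGS1 were taken by the smallest Euclidean distance over the 4 log2 intensities, raised to the floor and with each gene's mean removed, among 12844 genes measured on at least 1 array. They were RAB30, a small GTPase gene, at a distance of 0.66, ZNF331, a zinc finger gene, at 0.84, DNAJB1, an HSP40 co-chaperone gene, at 0.87, NR4A3 at 0.92 and CCL4, which encodes a chemokine, also at 0.92. RAB30 had intensities of 2440 and 954 on the U266 atovaquone and vehicle arrays and 339 and 355 on the K562 atovaquone and vehicle arrays. CCL4 had intensities of 2474 and 180 on the U266 atovaquone and vehicle arrays and 16.4 and 14.5 on the K562 atovaquone and vehicle arrays. RGS2 came at rank 11 of 12843 with a distance of 1.16. RGS3, the next ranked gene of the RGS set described here, came at rank 2428. RGS13 and RGS18 were below the floor on all arrays and were not ranked. DNAJB1 had intensities of 8221 and 1764 on the U266 atovaquone and vehicle arrays and 872 and 1554 on the K562 atovaquone and vehicle arrays, well above the floor in K562 where RGS1 was below it, so the measure, with each gene's mean removed, does not require a like level.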

How the data were processed

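Biotin-labelled cRNA made from total RNA of U266 and K562 cells was hybridised to Affymetrix arrays, per the labels' protocols, with 1 array in each of 4 groups. The deposited values are the authors' processed intensity per probe set on a linear scale; how they were background-corrected and normalised is not given in the sources used here. Array medians were between 314 and 340. Of 33252 probe sets, 19460 carried 1 gene symbol, which gave 18417 genes, each represented by its probe set of highest mean log2 intensity.

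From these intensities log2 ratios were computed with Python 3.11.15, numpy 2.4.6 and pandas 2.3.3, with a floor at each array's 40th percentile over annotated probe sets, and centred on the median ratio (−0.01 for U266 and −0.00 for K562). With 1 array per group no test was run, and the number of arrays limits the precision. The steps were checked on simulated data.

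The members, lists and motifs were chosen with earlier results of these data known. Text names all members, other RGS genes measured on at least 1 array, list genes at least 1.5-fold different or otherwise up to 2 with the largest ratio per list and line, the 5 genes most like RGS1, and chromosomal neighbours. Not every gene the rule allows is named, and PTGS2, RGS21 and the neighbours beyond the nearest were added for the chromosome 1 run after their values were seen. The 7 alternatives were no floor, floors at the 20th and 60th percentiles, no centring, quantile normalisation, the mean of a gene's probe sets, and 50 added to each intensity.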

Additional observations from a re-analysis of the deposited data

Results flagged for a closer look

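RGS14 and RGS16 had ratios of opposite sign in the lines. RGS14 had a log2 ratio of 0.12 in U266 and −0.14 in K562. RGS16 had a log2 ratio of 0.20 in U266 and −0.26 in K562. The difference between the lines was not tested, since each line has 1 array per group, and dose and time differ too. All 4 ratios lay within 2 SD of the genes nearest in intensity. No group has enough arrays for a check of outlying samples.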

How the results depend on the processing

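RGS1 in U266 had log2 ratios between 2.16 and 2.26 over the main setting and 7 alternatives, and RGS2 in U266 had log2 values between 1.51 and 2.60, both of them bounds. Counts moved with the floor, by its own construction, since it decides which genes have a ratio. Genes at least 1.5-fold higher with atovaquone in U266 numbered 2, against 3 (RGS13 joining) with no floor or at the 20th percentile. Genes at least 1.5-fold higher with atovaquone in K562 numbered 0, against 1 (RGS2) with no floor or the floor at the 20th percentile. On the vehicle arrays 1 gene was at least 1.5-fold higher in U266, against 2 with no floor or at the 20th percentile and 0 at the 60th, and 1 was lower, against 2 with no floor. Responses at least 1.5-fold apart between the lines numbered 0, against 3 with no floor and 1 at the 20th percentile. List genes measured on both arrays and at least 1.5-fold higher in U266 numbered 2, against 8 with no floor or at the 20th percentile and 0 at the 60th. List genes lower in K562 numbered 0, against 3 with no floor. No centring, quantile normalisation and 50 added to each intensity changed none of these counts, nor did the mean of probe sets, which returns the main value for the RGS genes because each has 1 probe set. Of 134 single-gene values under alternatives, 128 moved by less than the SD of the nearest genes (21 of them from the mean of probe sets), 6 moved by more, and 1 changed sign (RGS10 on the vehicle arrays, whose main log2 value was −0.01). Values lost under an alternative are not among the 134. RGS3 in U266, for example, had no value under the 60th percentile floor. No paired analysis was possible because each group has 1 array. Signal over background limits RGS13 and RGS18, which were below the 40th percentile floor on all arrays.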

Other observations

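Neighbours of the RGS genes outside the chromosome 1 run showed no large ratio in U266. GRK5 and TIAL1, which flank RGS10 on chromosome 10, had log2 ratios of 0.28 and 0.04. LMAN2 beside RGS14 stood at 0.03, TCEA2 beside RGS19 at −0.08, and C9orf43 beside RGS3 at −0.06. In K562 TIAL1 stood at −0.23, LMAN2 at −0.03 and TCEA2 at −0.04, while GRK5 and C9orf43 were below the floor.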
